A study of Homo sapiens with 16 samples.

Results

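The proteasome is the protease that degrades proteins tagged with ubiquitin, and the genes for its subunits, activators and assembly factors were followed here in LNCaP cells, an androgen-responsive human prostate cancer line, during endoplasmic reticulum (ER) stress. They were chosen by gene symbol, as the PSMA, PSMB, PSMC, PSMD, PSME and PSMG genes with a number and PSMF1, without pseudogenes. This gave 48 of the 58051 genes in the count table. Earlier results of these data were known when the choice was made. Cells at passage 20 were either transfected with Allstar control siRNA (siCtrl) or XBP1 siRNA (siXBP1) for 2 days, or treated with DMSO (Vehicle) or 10 µM MKC8866, an inhibitor of the IRE1α RNase, for 24 h. Every group then received 30 nM thapsigargin, a blocker of the ER calcium pump, for 3 h, so no group was free of ER stress. Each of the 4 groups held 4 RNA-seq libraries of the 1 cell line, and nothing in the labels said whether replicates were separate cultures, so p-values measure only the spread between these libraries, which may be technical.

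IRE1α is a sensor of the unfolded protein response that splices XBP1 mRNA, and spliced XBP1 encodes a transcription factor for genes of protein folding, secretion and ER-associated degradation. In ER-associated degradation, misfolded ER proteins are pulled into the cytosol by the ATPase VCP and destroyed by the proteasome. The proteasome itself has a core particle (20S) of stacked alpha and beta rings, with the proteolytic sites in 3 of the beta subunits, and is capped by a regulatory particle (19S) whose ATPases unfold the substrate or by the PA28 and PA200 activators. Dedicated chaperones build both particles. Many subunit genes share a transcription factor, NRF1 (encoded by NFE2L1), which is itself released from the ER and processed when proteasome capacity is short.

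Between 28713607 and 34509488 fragments were counted per library, and replicates varied with a biological coefficient of variation of 5.41% (siCtrl and siXBP1) and 4.97% (Vehicle and MKC8866). The targeted gene followed its label: XBP1 was at 359 to 422 CPM (counts scaled to a common library size) in siCtrl and at 51.2 to 54.2 CPM in siXBP1. In the inhibitor experiment it was at 483 to 539 CPM with Vehicle and at 537 to 619 CPM with MKC8866. It was called higher with MKC8866, with a log2 fold change of 0.20 ± 0.04 (SE, adjusted p = 0.00493, edgeR). MKC8866 acts on the splicing of the transcript, a step that gene counts do not measure. The luminal prostate markers KLK3, KLK2, TMPRSS2, FOLH1, HOXB13, KRT8 and KRT18 were each above 10 CPM in every library. Of 13 markers of basal, fibroblast, endothelial, leukocyte and neuroendocrine cells, 9 were under 1 CPM in every library, while COL1A1 reached 36.6 CPM, VWF 10.5 CPM, SYP 4.14 CPM and KRT14 1.19 CPM. The summed luminal markers were at 3882 to 4052 CPM in siCtrl and at 3287 to 3388 CPM in siXBP1, and at 3852 to 4052 CPM with Vehicle and 4216 to 4388 CPM with MKC8866. The summed markers of the other cell types were at 38.5 to 46.8 CPM in siCtrl, 42.7 to 47.7 CPM in siXBP1, 40.6 to 50.5 CPM with Vehicle and 38.6 to 44.8 CPM with MKC8866, and their part in the results below was not tested. In such bulk libraries less RNA of a gene per cell and fewer cells that express it cannot be told apart.

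LNCaP cells expressed the constitutive proteasome. Of the 48 genes, 46 passed the filter on low counts, while PSMA8, an alpha subunit of the testis, had no count in any library and PSMB11, the catalytic subunit of the thymus, had at most 2. Together the 48 genes took between 0.454% and 0.490% of all fragments in a library. To compare genes with each other, the mean CPM over the 16 libraries was divided by the length of all annotated exons in kilobases. On this scale PSMD8, a lid subunit of the regulatory particle, had the highest level at 116 CPM per kilobase, and PSMB4 was the highest of the core ring subunits at 78.0 CPM per kilobase. The median was 40.7 CPM per kilobase for the 14 core ring subunits, 32.3 for the 6 ATPases of the 19S base (PSMC1 to PSMC6) and 29.7 for the 11 other 19S subunits. The 4 activator genes had a median of 32.4, the 3 chaperones of the base (PSMD5, PSMD9 and PSMD10) 8.07, and the 4 chaperones of the core (PSMG1 to PSMG4) 11.6 CPM per kilobase. With the length of the canonical transcript in place of all exons, a choice made after seeing the data, the same medians were 81.0, 67.0, 76.7, 78.2, 10.6 and 22.2 CPM per kilobase, so the order of the groups depended on the length used.

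**Figure D1:**
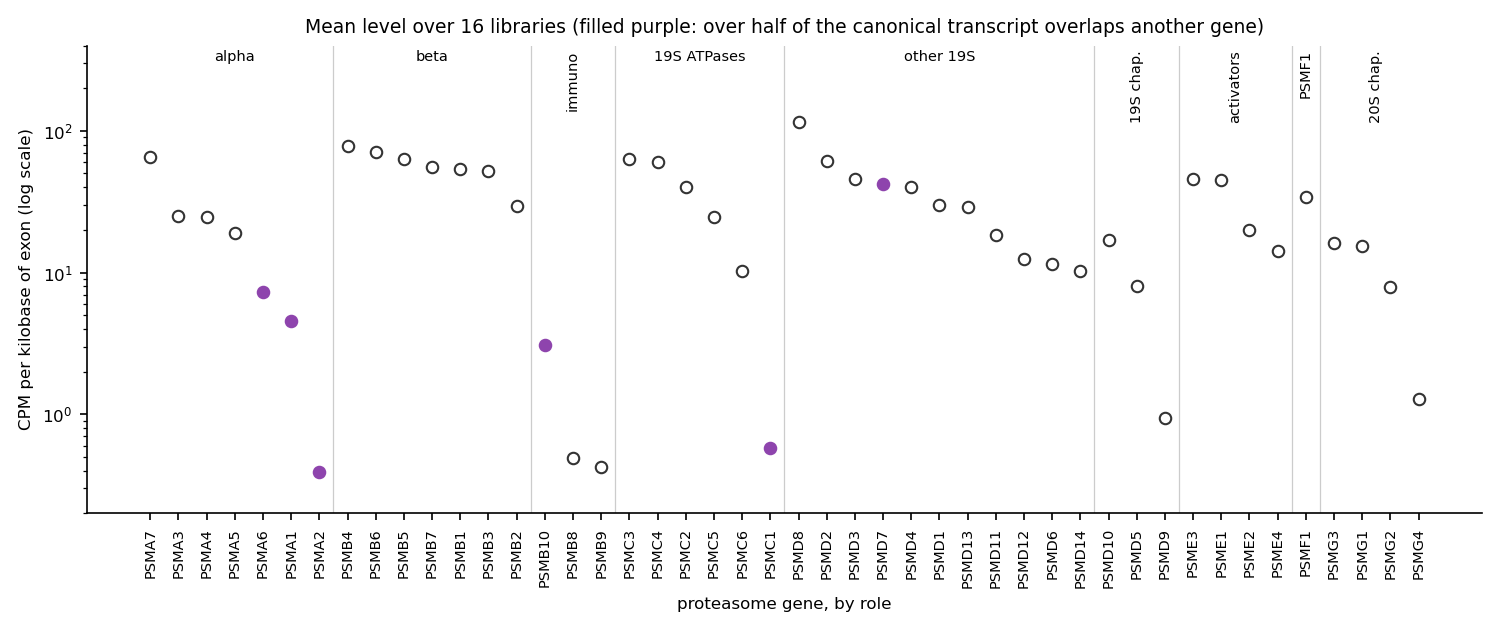
Mean level of each proteasome gene over the 16 libraries, in CPM per kilobase of exon on a log axis, ordered by role (chap., assembly chaperones; immuno, immunoproteasome subunits). Each point is 1 gene, and purple points are genes with over 50% of their canonical transcript shared with another gene. PSMA2, at 0.394, is the lowest point plotted, and PSMA8 and PSMB11 fall below the axis.

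The core particle is built from 14 kinds of constitutive ring subunit. Per kilobase of all exons, the measured levels of 3 of them stood below the rest. PSMA1, PSMA2 and PSMA6, all of the alpha ring, were at 4.57, 0.394 and 7.33 CPM per kilobase, whereas the other 11 ring subunits ranged from 19.1 for PSMA5 to 78.0 for PSMB4, a 4.08-fold range. With the canonical length the other 11 ranged from 28.7 to 183 CPM per kilobase. PSMA1 at 12.6 and PSMA2 at 1.47 stayed below them, but PSMA6 at 46.6 did not. These 3 genes share 67.0%, 54.5% and 81.4% of the bases of their canonical transcript with exons of another annotated gene, and fragments that overlap 2 genes had not been counted. The same held for the ATPase PSMC1, which had only 78 to 131 counts per library and shares 83.2% of its canonical transcript, mostly with NRDE2 on the other strand, while PSMC2 to PSMC6 ranged from 10.2 to 63.2 CPM per kilobase. PSMB10 with 56.1% and PSMD7 with 51.6% were the other members with over 50% of the transcript shared, and 37 of the 48 members shared none of it. PSMB10 was at 3.10 CPM per kilobase. PSMD7 was at 42.3 CPM per kilobase, above the median of 29.7 for the 11 other 19S subunits, to which it belongs. The values of the 6 genes with over 50% shared rest on the fragments outside the shared bases, and how far the overlap lowered them was not tested. PSMA2 was at 2.59, 2.07, 2.49 and 1.55 CPM in siCtrl and 2.00, 1.60, 1.73 and 2.13 CPM in siXBP1, and at 1.87, 2.69, 2.82 and 1.97 CPM with Vehicle and 1.63, 2.34, 2.14 and 2.03 CPM with MKC8866. The groups overlapped in both experiments, with a log2 fold change of -0.21 ± 0.17 (SE) after knockdown and -0.19 ± 0.16 (SE) with MKC8866, and neither passed the test.

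The transcripts of the proteolytic subunits were mostly of the constitutive kind. The constitutive catalytic subunits are PSMB5 (chymotrypsin-like), PSMB6 (caspase-like) and PSMB7 (trypsin-like), and interferon-induced PSMB8, PSMB9 and PSMB10 replace them in the immunoproteasome. Per kilobase of exon, PSMB5 was 123 to 235 times as high as PSMB8 in the siCtrl libraries, PSMB6 was 138 to 184 times as high as PSMB9, and PSMB7 was 17.03 to 21.5 times as high as PSMB10, whose count is limited by the overlap above. With canonical lengths the ratio of PSMB6 to PSMB9 in siCtrl was 80.4 to 107, and the other ratios moved less. PSMB6 was at 97.0, 105, 102 and 110.2 CPM in siCtrl, 92.7, 97.3, 104 and 101 CPM in siXBP1, 113, 103, 101 and 107 CPM with Vehicle and 100.3, 98.5, 104 and 99.7 CPM with MKC8866. PSMB7 was at 97.0, 102, 101 and 103 CPM in siCtrl, 104, 106, 111 and 99.8 CPM in siXBP1, 93.2, 99.8, 94.2 and 94.3 CPM with Vehicle and 92.3, 96.8, 95.1 and 93.3 CPM with MKC8866. The groups overlapped in both experiments for both genes. Neither passed the test in either comparison, with log2 fold changes of -0.07 ± 0.05 (SE) and 0.06 ± 0.04 (SE) after knockdown and -0.07 ± 0.04 (SE) and -0.01 ± 0.04 (SE) with MKC8866. PSMB9 stayed low in every group, at 1.20, 1.21, 1.56 and 1.61 CPM in siCtrl, 0.760, 1.41, 1.22 and 1.19 CPM in siXBP1, 1.83, 0.932, 1.31 and 1.44 CPM with Vehicle and 1.46, 1.32, 1.16 and 1.27 CPM with MKC8866. PSMB10 was at 5.78, 5.94, 4.85 and 6.24 CPM in siCtrl, 5.66, 6.45, 5.15 and 5.38 CPM in siXBP1, 6.45, 5.39, 5.61 and 5.76 CPM with Vehicle and 5.46, 5.41, 6.13 and 6.28 CPM with MKC8866. For both genes the groups overlapped in both experiments and no test was passed.

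The first comparison asked how the proteasome genes changed when XBP1 was depleted. After XBP1 knockdown, 13 of the 46 tested genes fell and 3 rose at an adjusted p under 0.05 (edgeR quasi-likelihood test, two-sided, Benjamini-Hochberg over all genes tested). The changes were small: the largest fall was 0.38 on the log2 scale, for PSMG4. Across all 21021 genes tested, 18.2% fell and 16.5% rose. Since 40 of the 46 tested members were at or above a mean of 10 CPM, where small changes are easier to detect, the background was also taken over the 10259 tested genes at that level, of which 29.3% fell and 22.9% rose. Of the 40 members there, 13 (32.5%) fell, a share near the background, and 1 (2.5%), PSMD7, rose. The median log2 fold change over the 46 genes was -0.05, beside 0.005 over all genes. Of the 46, 28 were negative, beside 49.3% of all genes tested. Without siCtrl replicate 4 the signs were split 23 to 23 with a median of -0.01, and the number that fell ranged from 10 to 12 when each library was left out in turn. The summed CPM of the members was 4724 to 4949 in siCtrl and 4503 to 4766 in siXBP1, so the groups overlapped. The mean in siXBP1 was 0.967 of that in siCtrl. For single genes, the siXBP1 libraries lay wholly below siCtrl for 10 members and wholly above for 3, beside 17.2% and 15.5% of all genes tested.

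By role, the falls were spread over both particles. In the alpha ring PSMA3, PSMA5 and PSMA6 fell out of 7 tested, and in the beta ring PSMB2 and PSMB5 out of 7. PSMC2 fell of the 6 base ATPases, and PSMD1, PSMD3, PSMD4, PSMD11 and PSMD12 fell of the 11 other 19S subunits. PSME2, which with PSME1 forms the PA28 activator, fell of the 4 activator genes, and PSMG4 of the 4 core chaperones. The 3 that rose were PSMD7, the base chaperone PSMD9 and the immunoproteasome subunit PSMB8. The 3 base chaperones otherwise gave log2 fold changes of -0.11 ± 0.05 (SE) for PSMD5 and -0.07 ± 0.06 (SE) for PSMD10, and PSMF1, an inhibitor of the core particle in vitro, gave 0.01 ± 0.04 (SE), none of which passed.

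PSMB2, a beta ring subunit without a proteolytic site, was at 155, 161, 162 and 168 CPM in the siCtrl libraries and 125, 133, 132 and 127 CPM in the siXBP1 libraries. All siXBP1 libraries were below all siCtrl libraries, and the log2 fold change was -0.32 ± 0.04 (SE, adjusted p = 1.07e-06, edgeR). PSMD11, a lid subunit that joins the regulatory particle to the core, was at 141, 137, 139 and 142 CPM in siCtrl and 118, 115, 117 and 113 CPM in siXBP1. The groups were tight and did not overlap, and its log2 fold change was -0.27 ± 0.04 (SE, adjusted p = 5.95e-06, edgeR). The lid subunit PSMD3 was at 225, 247, 240.4 and 232 CPM in siCtrl and 213, 209, 205 and 206 CPM in siXBP1, again without overlap, with a log2 fold change of -0.18 ± 0.04 (SE, adjusted p = 0.000794, edgeR).

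PSMG4, a chaperone of core particle assembly, was at 13.5, 16.6, 13.8 and 14.01 CPM in siCtrl and 9.56, 12.3, 10.9 and 11.7 CPM in siXBP1. The groups did not overlap although siCtrl replicate 2 stood above the other controls, and the log2 fold change was -0.38 ± 0.09 (SE, adjusted p = 0.00112, edgeR). PSMA6, an alpha ring subunit, was at 52.5, 53.7, 46.0 and 57.4 CPM in siCtrl and 39.5, 45.1, 40.7 and 42.6 CPM in siXBP1, and fell by 0.32 on the log2 scale (adjusted p = 0.000199, edgeR), also without overlap. The smallest falls that passed were those of PSMA5, PSMD4 and PSMB5. PSMD4, a ubiquitin receptor of the regulatory particle, changed by -0.13 ± 0.04 (SE, adjusted p = 0.0278, edgeR) and passed in 2 of the 8 fits that left out 1 library. PSMD1, a scaffold subunit of the base, fell by 0.18 on the log2 scale (adjusted p = 0.00519, edgeR).

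Against this direction, PSMD7, the lid partner of the deubiquitinase PSMD14, was at 106, 102, 102 and 109 CPM in siCtrl and 116, 127, 129.6 and 119 CPM in siXBP1. All siXBP1 libraries were above all siCtrl libraries, with a log2 fold change of 0.23 ± 0.04 (SE, adjusted p = 0.000287, edgeR). The siCtrl libraries were also below the Vehicle libraries, which were at 121, 122, 123 and 125 CPM, a contrast between experiments that was not tested. The antisense gene model that overlaps PSMD7 was itself counted at 25 to 61 fragments per library. PSMB8 was at 0.916, 1.01, 0.574 and 0.586 CPM in siCtrl and 1.17, 0.962, 1.73 and 1.31 CPM in siXBP1, from 18 to 51 counts per library over the series. Its log2 fold change was 0.74 ± 0.24 (SE, adjusted p = 0.0209, edgeR), the groups overlapped, and the call was lost without siCtrl replicate 3, siCtrl replicate 4 or siXBP1 replicate 3, at adjusted p of 0.0661, 0.0618 and 0.0920. PSMD9 changed by 0.25 ± 0.09 (SE, adjusted p = 0.0379, edgeR) on 212 to 315 counts per library, with 44.8% of its canonical transcript shared with other genes, and passed in 4 of the 8 fits that left out 1 library.

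**Figure D2:**
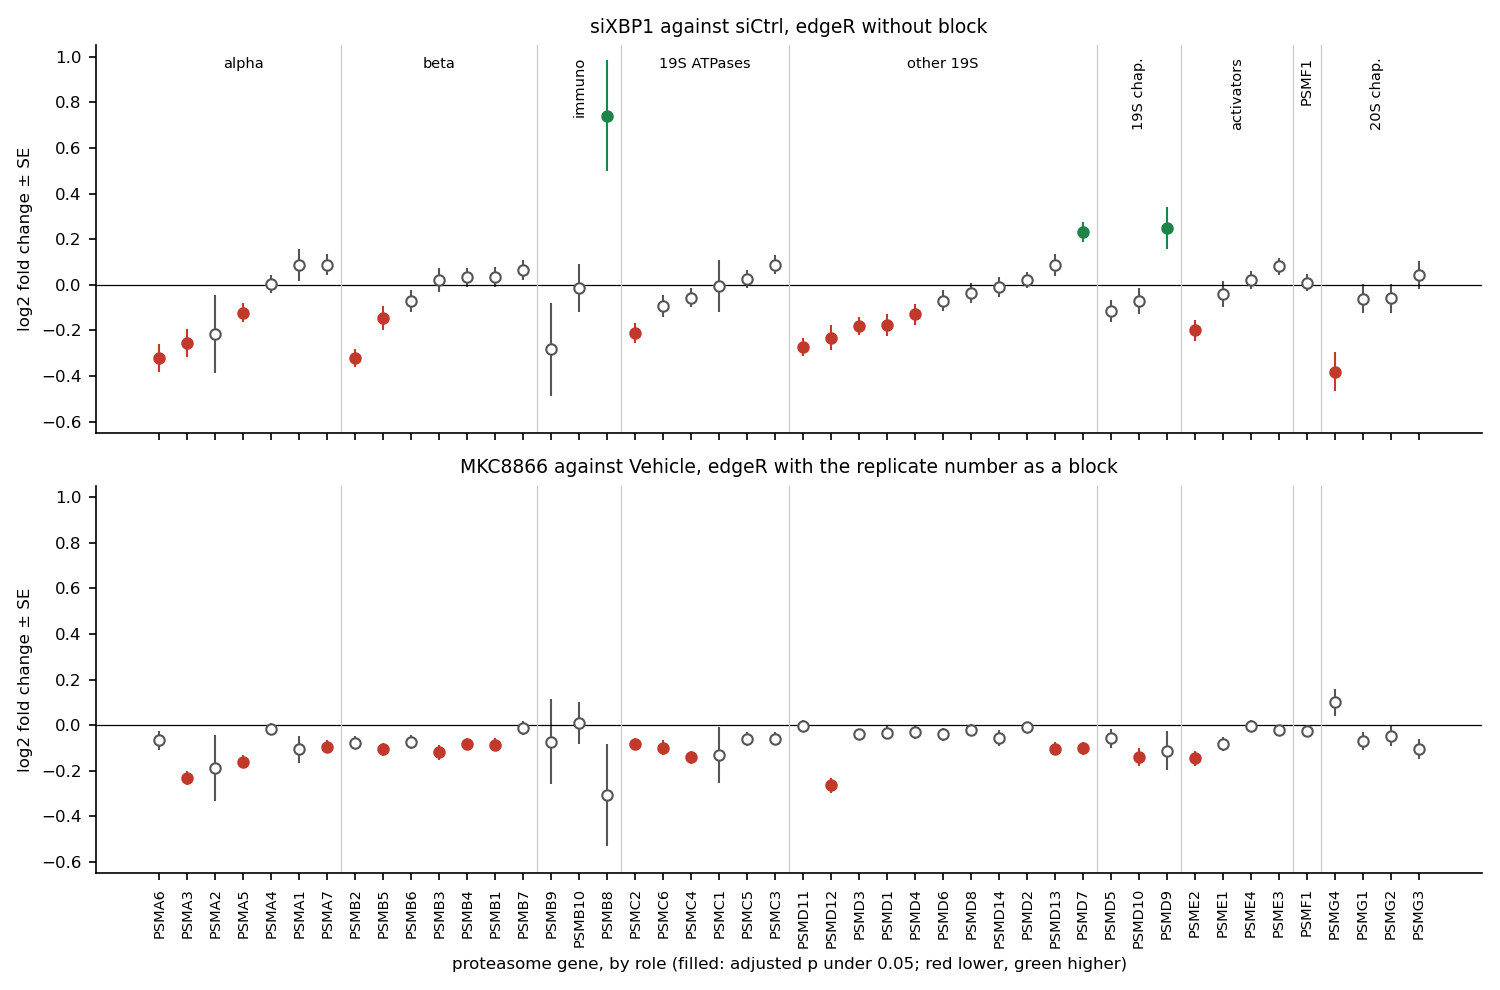
Log2 fold change with its SE for the 46 tested proteasome genes, ordered by role (chap., assembly chaperones; immuno, immunoproteasome subunits), after XBP1 knockdown (top) and with MKC8866 in the fit with the replicate block (bottom). Filled points passed an adjusted p under 0.05 (13 lower and 3 higher at the top, 15 lower and none higher at the bottom), and 44 of the 46 points at the bottom lie below 0.

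The second comparison asked the same of MKC8866. In the fit without pairing, 3 of the 46 genes, PSMA3, PSMA5 and PSMD12, fell and none rose (edgeR), beside 3.11% and 1.36% of the 21045 genes tested. DESeq2 called 5 members lower and none higher, beside 732 lower and 357 higher of the 21045 genes tested. Vehicle and MKC8866 libraries that carried the same number shared deviations, and once that number entered the fit as a replicate block 15 of the 46 fell and none rose, beside 7.05% and 6.00% of all genes. Over the tested genes with a mean of at least 10 CPM, 12.1% fell in the blocked fit, beside 15 of 40 members (37.5%). Almost every member leaned the same way by a small amount. Without the block 44 of 46 log2 fold changes were negative, beside 49.1% of all genes tested. Their median was -0.08, beside 0.003 over all genes. Over the 4 pairs of same-numbered libraries, the median log2 difference of the members was -0.11, -0.04, -0.07 and -0.05. Over all tested genes with a mean of at least 1 CPM it ran from 0.0011 to 0.0044. In these pairs 41, 36, 33 and 38 of the 46 members were lower with MKC8866. The summed CPM of the members was 4764 to 4839 with Vehicle and 4497 to 4668 with MKC8866, without overlap, and the mean was 0.956 of that with Vehicle. The MKC8866 libraries lay wholly below Vehicle for 10 single genes and wholly above for PSMG4 alone, beside 5.29% and 3.98% of all genes. The number that fell without the block ranged from 2 to 5 when each library was left out in turn, the 5 being found without MKC8866 replicate 2.

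With the block, the genes that fell included all 3 called without it. In the core particle they were PSMA3, PSMA5, PSMA7, PSMB1, PSMB3, PSMB4 and PSMB5, and among the base ATPases PSMC2, PSMC4 and PSMC6. Of the other 19S subunits PSMD7, PSMD12 and PSMD13 fell, and PSMD10 (a base chaperone known as gankyrin) and PSME2 fell besides. Those not described further were PSMB1, PSMB3 and PSMB4, beta ring subunits without a proteolytic site, the ATPases PSMC4 and PSMC6, and PSMD10. Their log2 fold changes in the blocked fit ran from -0.08 for PSMB4 to -0.14 for PSMC4 and PSMD10. None of the core chaperones or immunoproteasome subunits passed, and PSMG4 had a log2 fold change of 0.10 ± 0.06 (SE) and PSMB10 of 0.01 ± 0.09 (SE), the 2 positive values among the members.

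**Figure D3:**
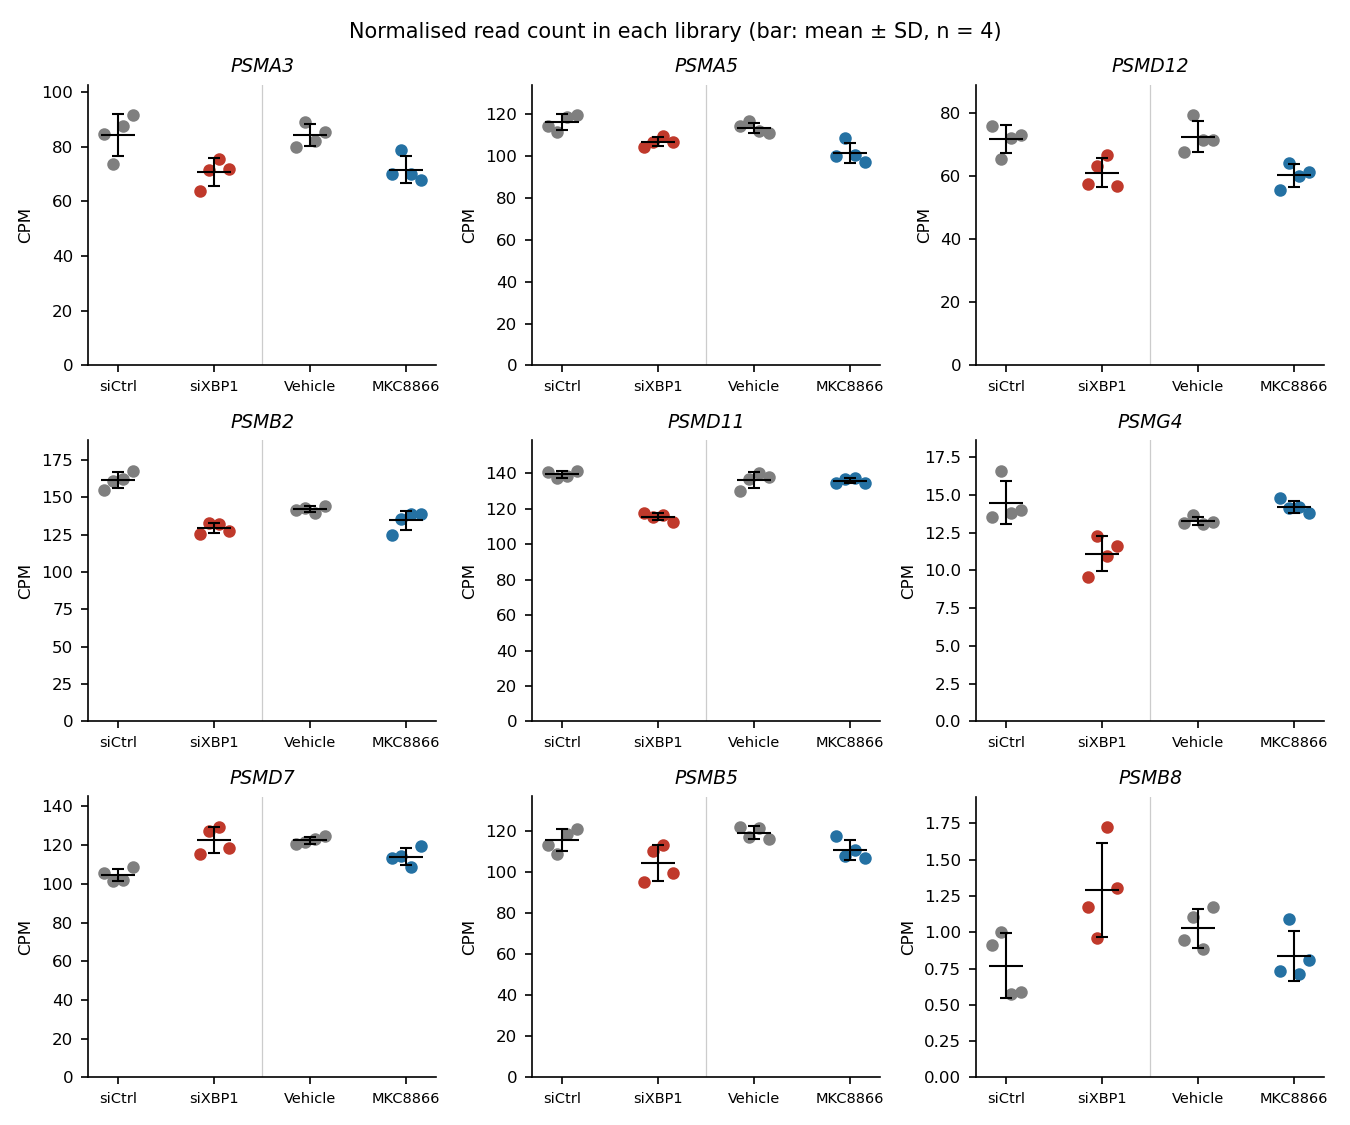
CPM of 9 proteasome genes in each of the 16 libraries, with the mean and SD of each group (n = 4). Points within a group are in order of replicate number, the grey line parts the 2 experiments, and the CPM axes start at 0. PSMA3, PSMA5 and PSMD12 were called lower with both treatments without the block, PSMB2, PSMD11 and PSMG4 were called lower after knockdown, and PSMD7 and PSMB8 were called higher after knockdown.

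PSMA3, PSMA5 and PSMD12 were the members called lower in both comparisons without the block, and with the block in the inhibitor experiment PSMB5, PSMC2 and PSME2 joined them. The 2 comparisons have separate controls. The bases upstream of the transcription start of the first 3 are shown because these genes moved in both experiments. They are from RefSeq on GRCh38.p14, 5′ to 3′ on the strand of the gene, with matches to CCAAT, to TGANNNNGC or to CCACG on either strand in capitals. The PSMA3 sequence is chr14:58244593-58244842 on the plus strand, that of PSMA5 is chr1:109426449-109426698 on the minus strand, and that of PSMD12 is chr17:67366578-67366827 on the minus strand.
PSMA3: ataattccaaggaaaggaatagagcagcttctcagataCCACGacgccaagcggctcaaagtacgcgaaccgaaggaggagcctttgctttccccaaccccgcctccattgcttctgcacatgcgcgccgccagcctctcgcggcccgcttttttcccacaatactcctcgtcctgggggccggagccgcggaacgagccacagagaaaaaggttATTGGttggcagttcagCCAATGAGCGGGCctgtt
PSMA5: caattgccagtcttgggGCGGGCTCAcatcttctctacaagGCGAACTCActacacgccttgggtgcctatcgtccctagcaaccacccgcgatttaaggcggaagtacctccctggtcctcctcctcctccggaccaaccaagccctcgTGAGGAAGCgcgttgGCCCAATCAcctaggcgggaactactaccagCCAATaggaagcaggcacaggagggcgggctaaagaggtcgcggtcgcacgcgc
PSMD12: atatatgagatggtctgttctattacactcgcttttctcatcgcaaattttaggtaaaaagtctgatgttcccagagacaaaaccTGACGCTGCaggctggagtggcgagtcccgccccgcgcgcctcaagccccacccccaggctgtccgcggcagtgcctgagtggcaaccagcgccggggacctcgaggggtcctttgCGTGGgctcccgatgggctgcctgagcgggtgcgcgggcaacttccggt

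CCAAT and CCACG are the ends of the ER stress element, in which they stand 9 bases apart, TGACGTG is a further sequence bound by spliced XBP1, and TGANNNNGC is the core of the antioxidant response element, which NRF1 binds. Of the 48 members, 42 had a promoter in the RefSeq table, from 250 bases before the start to 50 after it. None of the 42 held the full ER stress element or TGACGTG, which were in 0.0806% and 2.00% of all 27305 promoters. TGANNNNGC was in 61.9% of the members' promoters and 42.1% of all promoters, and CCAAT was in 45.2% and 35.7%. CCACG was in 35.7% and 37.9%. ACGTG, which lies within TGACGTG, was in 21.4% and 21.6%, and the palindrome CACGTG, which also holds ACGTG, in 7.14% and 7.43%. In the windows above, PSMA3 had CCAAT on both strands and a TGANNNNGC match that overlaps one of them near the start, PSMA5 had 4 TGANNNNGC matches, of which 1 overlaps CCAAT, and PSMD12 had a single match each to TGANNNNGC and CCACG. A match here describes these letters in this window and no binding was measured.

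PSMA3, an alpha ring subunit on chromosome 14 (GRCh38, 58244843 to 58272012, plus strand), was at 84.6, 73.8, 87.7 and 91.8 CPM in siCtrl and 63.8, 71.6, 75.7 and 72.0 CPM in siXBP1. Only siCtrl replicate 2 fell within the range of siXBP1, and the log2 fold change was -0.25 ± 0.06 (SE, adjusted p = 0.00189, edgeR). In the inhibitor experiment it was at 80.0, 89.2, 82.2 and 85.3 CPM with Vehicle and 70.0, 78.9, 69.9 and 67.9 CPM with MKC8866. The groups did not overlap, and the log2 fold change was -0.23 ± 0.05 (SE, adjusted p = 0.0054, edgeR). The call was kept in both comparisons when each library was left out.

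PSMD12, a lid subunit on chromosome 17 (GRCh38, 67337916 to 67366605, minus strand), was at 75.9, 65.6, 72.3 and 73.2 CPM in siCtrl and 57.6, 63.3, 66.6 and 57.0 CPM in siXBP1. The highest siXBP1 library was just above the lowest siCtrl library, and the log2 fold change was -0.23 ± 0.06 (SE, adjusted p = 0.00217, edgeR). With Vehicle it was at 67.8, 79.6, 71.4 and 71.5 CPM and with MKC8866 at 55.5, 64.1, 60.2 and 61.4 CPM. These groups did not overlap, with a log2 fold change of -0.26 ± 0.05 (SE, adjusted p = 0.00238, edgeR), and both calls were kept when each library was left out.

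PSMA5, an alpha ring subunit on chromosome 1 (GRCh38, 109399042 to 109426448, minus strand), was at 114, 111, 119 and 119.7 CPM in siCtrl and 104, 107, 109 and 107 CPM in siXBP1, and at 114, 117, 112 and 111 CPM with Vehicle and 99.8, 108, 101 and 96.9 CPM with MKC8866. The groups did not overlap in either experiment. The log2 fold changes were -0.12 ± 0.04 (SE, adjusted p = 0.023, edgeR) and, with MKC8866, -0.16 ± 0.04 (SE, adjusted p = 0.0316, edgeR). These calls were near the threshold: without 1 library the knockdown call was lost for 5 of 8 libraries, with an adjusted p of up to 0.102, and the inhibitor call for 7 of 8, with an adjusted p of up to 0.0955. With the block the inhibitor call had an adjusted p of 4.16e-05 (edgeR).

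PSMB5, the chymotrypsin-like subunit, was at 113, 109, 119 and 121 CPM in siCtrl and 94.99, 110.1, 113 and 99.3 CPM in siXBP1, and at 122, 117, 121 and 116 CPM with Vehicle and 117, 108, 111 and 107 CPM with MKC8866. The groups overlapped in both experiments. Its log2 fold change was -0.14 ± 0.05 (SE, adjusted p = 0.0369, edgeR) after knockdown, a call lost without any one of 5 of the 8 libraries (adjusted p of up to 0.176), and -0.11 ± 0.03 (SE, adjusted p = 0.00625, edgeR) with MKC8866 and the block, against an adjusted p of 0.21 without it.

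The ATPase PSMC2 was at 155, 145, 146 and 159 CPM in siCtrl and 121, 135, 135 and 131 CPM in siXBP1, without overlap, and its log2 fold change was -0.21 ± 0.04 (SE, adjusted p = 0.000684, edgeR). With Vehicle it was at 139.7, 159, 140.2 and 153 CPM and with MKC8866 at 130.4, 146, 133 and 148 CPM, and these groups overlapped. The log2 fold change was -0.08 ± 0.03 (SE, adjusted p = 0.0258, edgeR) with the block, against an adjusted p of 0.468 without it. PSME2 was at 79.1, 72.7, 71.9 and 73.4 CPM in siCtrl and 61.7, 69.4, 63.9 and 63.6 CPM in siXBP1, with a log2 fold change of -0.20 ± 0.05 (SE, adjusted p = 0.00202, edgeR). It was at 78.6, 77.6, 75.5 and 74.1 CPM with Vehicle and 71.6, 71.1, 67.3 and 66.2 CPM with MKC8866, with -0.15 ± 0.03 (SE, adjusted p = 0.00077, edgeR) in the blocked fit and an adjusted p of 0.0684 without the block. Its groups overlapped in neither experiment. Its partner PSME1 gave -0.04 ± 0.06 (SE) and, with the block, -0.08 ± 0.03 (SE), and passed neither test.

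Whether the 2 treatments acted differently on a gene was tested as the difference of the log2 fold changes (knockdown minus inhibitor) over all 16 libraries. Kind of treatment, experiment and length of pretreatment cannot be told apart in this test. It was passed by 9 of the 46 members (edgeR): 4 were more negative after knockdown and 5 more positive, beside 12.7% and 10.6% of the 20357 genes tested. Both shares of the members (8.70% and 10.9%) were near or below the background. In the blocked fit 6 members were on each side, beside 3001 more negative and 2641 more positive of the 20357 genes. With 1 library left out, 3 to 4 members were more negative and 1 to 5 more positive, with 3 or fewer of the latter for 11 of the 16 libraries and 1 without siXBP1 replicate 3.

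The 4 that fell further after knockdown were PSMB2, PSMD3, PSMD11 and PSMG4. For PSMD11, at 130.3, 137, 140.3 and 138 CPM with Vehicle and 135, 137, 138 and 135 CPM with MKC8866, the inhibitor log2 fold change was -0.0023 ± 0.04 (SE) and the difference was -0.27 ± 0.05 (SE, adjusted p = 0.00018, edgeR). PSMG4 was at 13.2, 13.7, 13.1 and 13.2 CPM with Vehicle and 14.8, 14.1, 14.2 and 13.8 CPM with MKC8866, where every library was above every Vehicle library, and the difference was -0.48 ± 0.11 (SE, adjusted p = 0.0011, edgeR). PSMB2 was at 141.7, 143.0, 139.5 and 143.9 CPM with Vehicle and 124.8, 135.1, 138.8 and 138.9 CPM with MKC8866, again without overlap but lower with MKC8866. Its inhibitor log2 fold change of -0.08 ± 0.04 (SE) did not pass (adjusted p = 0.405, and 0.0603 with the block, edgeR). The difference was -0.24 ± 0.06 (SE, adjusted p = 0.00168, edgeR). These 3 differences passed whichever library was left out. PSMD3 was at 238, 225, 236 and 235 CPM with Vehicle and 224, 224, 231 and 228 CPM with MKC8866, and its difference of -0.14 ± 0.05 (SE, adjusted p = 0.0476, edgeR) passed in 4 of the 16 fits that left out 1 library.

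Of the 5 that were more positive after knockdown, PSMD7 had the smallest adjusted p. With MKC8866 it was at 113, 115, 109 and 119.8 CPM, below every Vehicle library. With the block it fell by 0.10 on the log2 scale (adjusted p = 0.0107, edgeR), against an adjusted p of 0.218 without it. Its fold changes thus had opposite signs with the 2 treatments, although the fall with MKC8866 was not called without the block. The difference was 0.33 ± 0.06 (SE, adjusted p = 8.34e-05, edgeR). PSMB8 was at 0.950, 1.11, 0.885 and 1.18 CPM with Vehicle and 0.732, 1.09, 0.715 and 0.810 CPM with MKC8866, and the difference was 1.04 ± 0.32 (SE, adjusted p = 0.0187, edgeR) on few counts.

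The other 3 were near the threshold. PSMA7, an alpha ring subunit, was at 114, 106, 108 and 111 CPM in siCtrl and 112, 121, 126 and 108 CPM in siXBP1, and at 119.9, 122, 112 and 117 CPM with Vehicle and 104, 114, 111 and 112 CPM with MKC8866. The groups overlapped in both experiments, the difference was 0.19 ± 0.06 (SE, adjusted p = 0.0371, edgeR), and it passed in 7 of the 16 fits without 1 library. PSMD13, a lid subunit, was at 141, 128, 136 and 143 CPM in siCtrl and 135, 144, 158 and 145 CPM in siXBP1, and at 133, 142, 144 and 143 CPM with Vehicle and 129, 138, 125 and 132 CPM with MKC8866. Its groups overlapped in both experiments too, and the difference of 0.19 ± 0.07 (SE, adjusted p = 0.034, edgeR) passed in 7 of 16 such fits. The ATPase PSMC3 was at 137, 136, 141 and 149.6 CPM in siCtrl and 143, 153, 153 and 150.4 CPM in siXBP1, and at 151, 139.9, 144 and 146 CPM with Vehicle and 139.7, 137, 138 and 143 CPM with MKC8866. With overlap in both experiments, the difference was 0.15 ± 0.06 (SE, adjusted p = 0.0493, edgeR) and passed in 4 of 16 such fits. PSMA6, at 50.8, 51.2, 43.1 and 52.3 CPM with Vehicle and 40.7, 50.3, 45.6 and 51.6 CPM with MKC8866, missed the threshold (adjusted p = 0.0656, edgeR) and passed it in the blocked fit, as did PSMD1 and PSMD9.

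In 22 members no test of a treatment was passed in either comparison. They were PSMA1, PSMA2 and PSMA4 of the alpha ring, PSMB6 and PSMB7 of the beta ring, PSMB9 and PSMB10, PSMC1, PSMC3 and PSMC5 of the ATPases, PSMD2, PSMD5, PSMD6, PSMD8 and PSMD14 of the PSMD genes, PSME1, PSME3, PSME4, PSMF1, and the core chaperones PSMG1, PSMG2 and PSMG3, although PSMC3 passed the test of the difference. Their log2 fold changes ranged from -0.28 (PSMB9) to 0.09 (PSMC3) after knockdown and from -0.19 (PSMA2) to 0.01 (PSMB10) with MKC8866. PSMD14, the deubiquitinase of the lid, had log2 fold changes of -0.01 ± 0.04 (SE) and -0.06 ± 0.05 (SE), and PSMD2, the base scaffold and the second highest member by CPM, had 0.02 ± 0.04 (SE) and -0.01 ± 0.04 (SE) at 9271 to 11513 counts per library. PSME3, a nuclear PA28 activator, was higher in every siXBP1 library than in any siCtrl library without passing the test, at 0.08 ± 0.04 (SE, adjusted p = 0.0966, edgeR), and PSME4, the PA200 activator, had 0.02 ± 0.04 (SE) and -0.0048 ± 0.04 (SE).

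A list of 33 genes that act with the proteasome was read in the same fits: further assembly factors and subunits, associated enzymes, substrate shuttles, ubiquitin genes and the NRF1 pathway. After XBP1 knockdown 13 of the 33 fell and 7 rose, beside 18.2% lower and 16.5% higher of all genes tested, or 29.3% and 22.9% of genes with a mean of at least 10 CPM. NFE2L3 and MAFF, which both rose, were below that mean, at 8.38 and 3.92 CPM. With MKC8866 2 fell and none rose, beside 3.11% and 1.36% of all genes, or 6 and none with the block, beside 7.05% and 6.00% (12.1% lower of genes with a mean of at least 10 CPM). The median log2 fold changes of the list were -0.07 and -0.03. VCP and ZFAND2A were the genes called lower in both comparisons. VCP, the ATPase of ER-associated degradation, was at 671 to 709 CPM in siCtrl and 612 to 666 CPM in siXBP1, with a log2 fold change of -0.12 ± 0.04 (SE, adjusted p = 0.0166, edgeR). It was at 698 to 722 CPM with Vehicle and 577 to 589 CPM with MKC8866, with -0.28 ± 0.03 (SE, adjusted p = 2.54e-06, edgeR). ZFAND2A (AIRAP), a stress-induced protein that binds the regulatory particle, was at 23.4 to 25.3 CPM in siCtrl and 17.3 to 18.6 CPM in siXBP1, and at 24.6 to 26.7 CPM with Vehicle and 15.3 to 19.1 CPM with MKC8866. Its log2 fold changes were -0.46 ± 0.06 (SE) and -0.57 ± 0.07 (SE), and the groups overlapped in neither experiment.

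The mRNA of NRF1 itself did not pass: NFE2L1 was at 658 to 715 CPM in siCtrl and 686 to 734 CPM in siXBP1, with log2 fold changes of 0.05 ± 0.04 (SE) and, with MKC8866, 0.05 ± 0.05 (SE). DDI2, the protease that cleaves NRF1, fell after knockdown with a log2 fold change of -0.31 ± 0.05 (SE, adjusted p = 4.13e-05, edgeR) and had 0.05 ± 0.05 (SE) with MKC8866. NGLY1, the glycanase that processes NRF1, gave -0.05 ± 0.06 (SE) and -0.07 ± 0.05 (SE), and passed neither test. MAFG and MAFK, partners of the NRF factors on DNA, fell after knockdown with log2 fold changes of -0.44 ± 0.06 (SE) and -0.38 ± 0.05 (SE), while MAFF, the other small MAF gene of the list, rose with 0.31 ± 0.12 (SE, adjusted p = 0.0479, edgeR) on 94 to 139 counts per library. NFE2L2, which encodes the related factor NRF2, rose with 0.26 ± 0.04 (SE). POMP, the maturation factor of the core particle, had 0.02 ± 0.05 (SE) after knockdown and fell with MKC8866 in the blocked fit, with -0.17 ± 0.04 (SE, adjusted p = 0.000337, edgeR). The ubiquitin receptor ADRM1 gave -0.07 ± 0.05 (SE) and -0.07 ± 0.04 (SE), and passed neither. ZFAND5, which stimulates the regulatory particle, gave the largest change of the list, a rise after knockdown of 0.65 ± 0.06 (SE, adjusted p = 5.57e-09, edgeR), beside -0.06 ± 0.04 (SE) with MKC8866. USP14, a deubiquitinase bound to the regulatory particle, rose after knockdown with 0.11 ± 0.04 (SE) and fell in the blocked fit of MKC8866 with -0.09 ± 0.03 (SE).

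**Figure D4:**
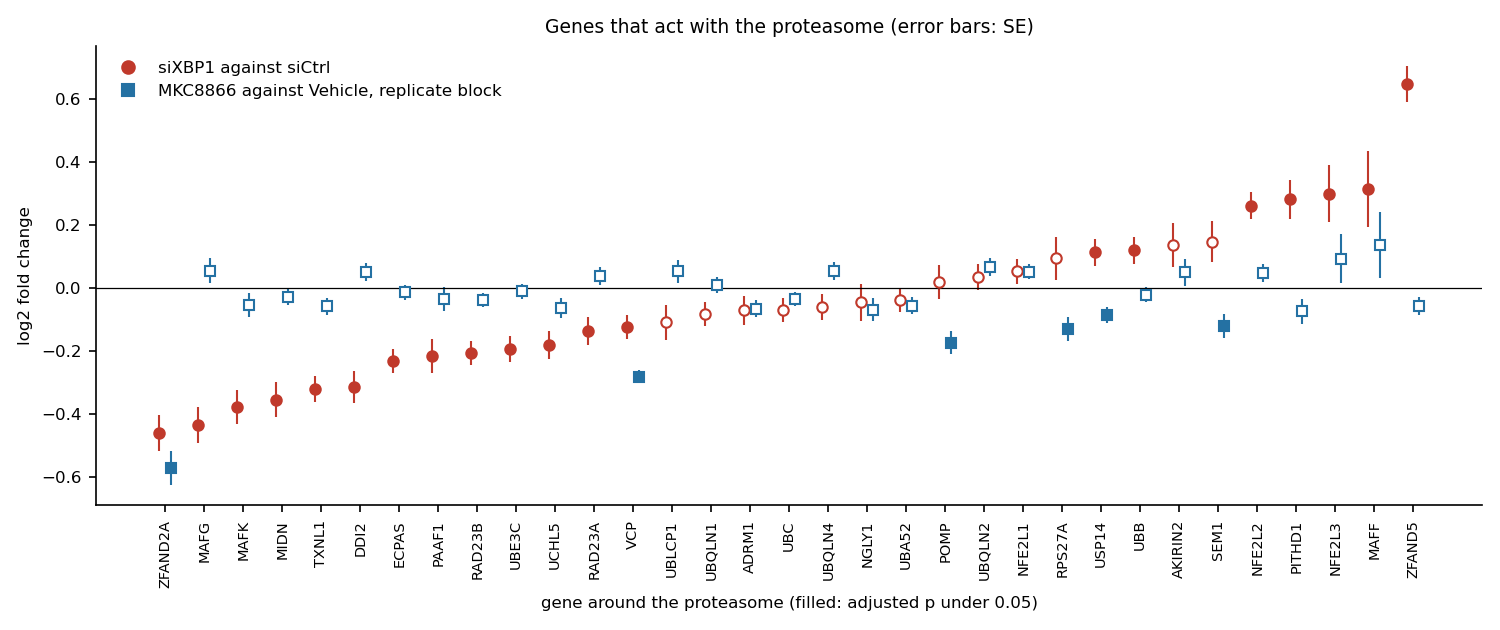
Log2 fold change with its SE of 33 genes that act with the proteasome, in order of the change after XBP1 knockdown (red circles), with the change with MKC8866 in the blocked fit (blue squares). Filled symbols passed an adjusted p under 0.05: 13 fell and 7 rose after knockdown, and 6 fell and none rose with MKC8866.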

How the data were processed

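RNA-seq was available for 16 LNCaP libraries. The authors aligned stranded paired-end reads to the human genome (hg38) with STAR 2.5.2a and counted them with featureCounts 1.5.0 (a patch release) on an Ensembl annotation. The values they deposited are raw counts of fragments per gene, unstranded, with multimapping reads and reads that hit 2 genes dropped, so that genes with overlapping exons are undercounted and a gene cannot be told from its antisense partner. Group and replicate came from the sample titles.

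Genes that exceeded 5 counts in 1 or more libraries of both groups were tested with edgeR 4.0.16 in R 4.3.3 (TMM, quasi-likelihood F test, two-sided), in 1 model per treatment, at a Benjamini-Hochberg adjusted p under 0.05. The SE is the log2 fold change over the root of F. CPM used TMM factors over the 16 libraries. Depth, 28713607 to 34509488 counts, limits genes with few counts, and the spread between replicates limits the rest. No pair of replicates agreed within counting noise. The fits were tested on simulated data.

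Same-numbered libraries of the inhibitor experiment deviated together (correlations of 0.213, 0.379, 0.102 and 0.225 over 15041 genes), so the replicate number was added as a block. The labels stated no pairing. Vehicle 1 with MKC8866 3 (0.137) and Vehicle 3 with MKC8866 1 (0.159) correlated more than the libraries numbered 3 did. All other pairs of unlike number were at 0.00062 or lower. In the knockdown experiment same-numbered libraries did not deviate together.

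The members, the list of 33 further genes and the motifs were chosen with earlier results of these data known. Genes given with every library were those called in both comparisons in either fit, those whose responses differed, the 3 largest changes per comparison at a mean of 1 CPM or more, and the catalytic subunits. Of the 33, those called in both comparisons, NFE2L1, DDI2, NGLY1, POMP and ADRM1 were set by rule, and others named were chosen after seeing their values. Overlaps and canonical transcripts were taken from GENCODE (GRCh38), and promoters from RefSeq (GRCh38.p14), the first listed where a gene had several (8 members). Alternatives were DESeq2 1.42.0, DESeq2-style size factors, other count filters, all libraries in 1 fit, an adjusted p under 0.01, the block, and each library left out. The levels by canonical length and the background at 10 CPM were added after seeing the data. Python 3.11.15 with numpy 2.4.6, pandas 2.3.3, scipy 1.17.1 and matplotlib 3.10.9 was used for tables and figures.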

Additional observations from a re-analysis of the deposited data

Results flagged for a closer look

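In 4 of 84 sets of 4 libraries of a described member, 1 library stood apart from the other 3 by Dixon's 95% criterion, where chance alone gives about 5% of sets. PSMA6 was at 43.1 CPM in Vehicle replicate 3, beside 50.8 to 52.3 CPM in the other Vehicle libraries. PSMB7 was at 99.8 CPM in Vehicle replicate 2, beside 93.2 to 94.3 CPM. PSMD13 was at 133.0 CPM in Vehicle replicate 1, beside 142 to 144 CPM. PSMG4 was at 16.6 CPM in siCtrl replicate 2, beside 13.5 to 14.01 CPM, and its fall after knockdown passed without that library.

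For 9 members the log2 fold change after XBP1 knockdown differed from that with MKC8866 (edgeR interaction test, all 16 libraries). The difference, knockdown minus inhibitor, was -0.24 for PSMB2, -0.14 for PSMD3, -0.27 for PSMD11 and -0.48 for PSMG4. It was 0.19 for PSMA7, 1.04 for PSMB8, 0.15 for PSMC3, 0.33 for PSMD7 and 0.19 for PSMD13. Treatment, experiment and time of pretreatment cannot be told apart in these differences.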

How the results depend on the processing

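After XBP1 knockdown, the 13 members that fell stayed between 10 and 13 under every alternative, and the 3 that rose became 5 with at least 10 counts in every library, 1 at an adjusted p under 0.01 and 2 to 4 otherwise. The replicate block, where the numbers do not pair the knockdown libraries, gave 13 and 3. Leaving out each library in turn gave 10 to 12 lower and 2 to 3 higher. With MKC8866 the 3 that fell became 5 with at least 10 counts in every library, 5 in DESeq2, 15 with the replicate block and 2 to 5 with each library left out (5 without MKC8866 replicate 2), and 2 to 4 otherwise. None rose under any alternative. For the difference between the treatments, the 5 more positive after knockdown became 1 at an adjusted p under 0.01 and 1 to 5 with a library left out, falling to 3 or fewer for 11 of the 16 libraries (1 without siXBP1 replicate 3), and the 4 more negative became 3 to 4. The block gave 6 and 6 here, and of these counts of members it moved only the one lower with MKC8866, given above, by over 1.5 times. No named member reversed its direction while called. Over the alternatives of the named members' fold changes, 21 calls were lost and 12 gained, and 555 values kept their side of the threshold. The cause of these changes was not tested. When only the 250 bases before the start were searched, TGANNNNGC was in 54.8% of the members' promoters and 35.4% of all promoters, and CCACG in 35.7% and 33.3%. Fold changes of PSMA2, PSMB8, PSMB9 and PSMC1 rest on fewer than 140 counts per library.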

Other observations

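Fragments were also counted on processed pseudogenes of several members. PSMC1P1 was counted at 3044 to 4705 fragments per library, a mean of 119 CPM, while its parent PSMC1 was at 3.58 CPM. It fell after XBP1 knockdown, from 122 ± 9.22 to 110 ± 4.31 CPM (SD, n = 4), with a log2 fold change of -0.15 ± 0.05 (SE, adjusted p = 0.0226, edgeR), while PSMC1 gave -0.0045 ± 0.11 (SE) and did not pass. PSMA6P1, at 14.2 CPM beside 47.7 CPM for PSMA6, had a log2 fold change of -0.28 ± 0.08 (SE, adjusted p = 0.00943, edgeR), and PSME2P1, at 13.4 CPM beside 71.1 CPM for PSME2, had -0.25 ± 0.08 (SE, adjusted p = 0.011, edgeR). PSME2P2, at 3.59 CPM, did not pass. With MKC8866 none of these 4 pseudogenes passed. A pseudogene and its parent can share reads, and how the fragments divide between them was not tested.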
